A study of Mus musculus with 16 samples.

Results

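Regulatory T cells are the CD4 T cells that restrain immune responses, and 10 genes by which they are commonly recognised were followed here in cultures of Th17 cells, the IL-17-producing helper T cells. The genes were Foxp3, Ikzf2, Ctla4, Tnfrsf18, Lrrc32, Itgae, Nt5e, Entpd1, Izumo1r and Gpr83. They were taken by name from a table of 15571 genes, and all 10 were among the 14985 genes that passed the filter on low counts. Foxp3 is on chromosome X, Ikzf2 and Ctla4 on chromosome 1, Tnfrsf18 on chromosome 4, Lrrc32 on chromosome 7, Itgae on chromosome 11, Entpd1 on chromosome 19, and Nt5e, Izumo1r and Gpr83 on chromosome 9.

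The cells came from mice with loxP-flanked alleles of PDH, the pyruvate dehydrogenase complex that makes acetyl-CoA from pyruvate. The sample titles write PHD where the protocols write PDH. Knockout (KO) mice were PDHfl/fl CD4-Cre+, in which a Cd4 promoter drives Cre and so acts in the T cell lineage, and wild-type (WT) mice were PDHfl/fl without Cre. Naive CD4 T cells from spleen and lymph nodes were isolated magnetically and grown for 3 days with plate-bound anti-CD3 (5 µg/mL), anti-CD28 (1 µg/mL), IL-6 (30 ng/mL), TGFβ (2 ng/mL) and anti-IFNγ (5 µg/mL). The 16 libraries formed 4 groups of 4: KO acetate and WT acetate, with 10 mM sodium acetate during the whole culture, and KO untreated and WT untreated, without it. All groups therefore carried the floxed alleles and received TGFβ, a cytokine that also induces Foxp3. The design held no group with Cre alone and none with another sodium salt. The labels do not say whether libraries of a group came from separate mice or cultures, so the p-values speak of the spread among these libraries alone, which may be technical.

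Library totals lay between 24.57 and 33.72 M estimated counts. Every value below is CPM, a gene's count scaled to a common library total after TMM (counts per M). An unnamed gene took over 3% of the counts in 4 libraries, which were KO acetate 2, KO untreated 1, KO untreated 2 and WT untreated 1. Where a call of the 10 genes changed without these 4 libraries, both values are given. The T cell genes Cd3d, Cd3e, Cd3g, Cd2, Cd5 and Lck summed to between 1441 and 1912 CPM in a library, and Cd4 lay between 350.0 and 477 CPM. B cell genes, 6 of 6 in the table, summed to between 2.72 and 8.63 CPM. Natural killer genes, 2 of 5 in the table, summed to between 1.30 and 3.65 CPM, and macrophage, monocyte and dendritic cell genes, 6 of 10 in the table, to between 4.19 and 7.80 CPM. Of 5 erythroid and platelet genes, 0 reached the table, nor did the defining markers Ncr1, Klrb1c, Csf1r and Adgre1. Pdha1, which encodes a subunit of PDH, lay between 232 and 262 CPM in KO acetate and 209.6 and 235 CPM in KO untreated libraries, and 250.4 and 273 CPM in WT acetate and 234 and 263 CPM in WT untreated libraries. The sources used here do not name the deleted gene or exons, and counts over a whole gene do not check the removal of a few exons.

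Foxp3 is the transcription factor that defines regulatory T cells, and it can be induced by TGFβ in naive CD4 T cells. The same cytokine with IL-6 directs naive cells to the Th17 fate. Several of the other genes act at the cell surface. CTLA-4 competes with CD28 for CD80 and CD86, GITR (Tnfrsf18) is a costimulatory receptor of the TNF family, and GARP (Lrrc32) holds latent TGFβ. CD39 (Entpd1) and CD73 (Nt5e) together turn extracellular ATP into adenosine. Most of these genes are also used by activated T cells that are not regulatory. In a bulk library, fewer cells of a type and less RNA per cell cannot be told apart.

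Promoter sequences, 250 bases before a transcription start in RefSeq on build GRCm38.p6, were found for 7 of the 10 genes, with 9 promoters in all. They were read for 4 motifs on both strands: TGTTTAC (forkhead, the family of Foxp3), TTCNNNGAA (STAT), TGANTCA (AP-1) and GGAAA (the core bound by NFAT). The promoters of Ctla4, Tnfrsf18 and Entpd1 are shown because these genes were lower in KO untreated cells and higher with acetate in KO cells, and those of Foxp3 because it defines the set. Capitals mark motif matches, and each sequence reads 5′ to 3′ toward the start.
Ctla4 (chr1:60908775-60909024, + strand): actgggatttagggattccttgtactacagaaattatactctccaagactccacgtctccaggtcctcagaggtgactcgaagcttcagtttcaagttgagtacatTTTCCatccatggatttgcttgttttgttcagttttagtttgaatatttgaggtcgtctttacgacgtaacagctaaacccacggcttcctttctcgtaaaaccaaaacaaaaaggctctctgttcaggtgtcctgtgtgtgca
Tnfrsf18 (chr4:156026072-156026321, + strand): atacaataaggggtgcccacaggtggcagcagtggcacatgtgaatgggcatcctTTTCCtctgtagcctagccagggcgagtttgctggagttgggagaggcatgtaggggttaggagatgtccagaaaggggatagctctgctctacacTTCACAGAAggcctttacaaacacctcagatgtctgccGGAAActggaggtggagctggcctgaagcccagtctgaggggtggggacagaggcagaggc
Entpd1, upstream start (chr19:40612116-40612365, + strand): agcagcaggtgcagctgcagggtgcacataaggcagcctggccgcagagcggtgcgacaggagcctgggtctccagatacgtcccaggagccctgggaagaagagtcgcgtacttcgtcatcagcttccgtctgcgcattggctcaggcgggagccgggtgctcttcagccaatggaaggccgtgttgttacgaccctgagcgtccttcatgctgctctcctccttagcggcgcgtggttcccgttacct
Entpd1, downstream start (chr19:40659520-40659769, + strand): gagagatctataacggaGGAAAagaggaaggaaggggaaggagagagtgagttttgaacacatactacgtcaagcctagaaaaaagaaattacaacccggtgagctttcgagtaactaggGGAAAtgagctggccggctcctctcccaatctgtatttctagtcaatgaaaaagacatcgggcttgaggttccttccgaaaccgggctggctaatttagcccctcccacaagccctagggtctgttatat
Foxp3, upstream start (chrX:7579426-7579675, + strand): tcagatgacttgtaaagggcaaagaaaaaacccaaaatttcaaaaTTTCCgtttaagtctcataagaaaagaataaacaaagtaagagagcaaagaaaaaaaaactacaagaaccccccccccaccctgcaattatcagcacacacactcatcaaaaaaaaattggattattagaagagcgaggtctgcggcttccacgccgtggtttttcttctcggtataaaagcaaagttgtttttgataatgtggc
Foxp3, downstream start (chrX:7580233-7580482, + strand): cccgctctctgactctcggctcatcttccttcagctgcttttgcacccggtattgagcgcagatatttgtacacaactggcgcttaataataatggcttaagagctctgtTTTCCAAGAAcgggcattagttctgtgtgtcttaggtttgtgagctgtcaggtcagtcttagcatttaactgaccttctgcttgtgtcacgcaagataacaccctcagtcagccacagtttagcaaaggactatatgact

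The Ctla4 promoter held 1 NFAT core, TTTCC on the strand shown, 144 bases before the start. The Tnfrsf18 promoter held the STAT motif TTCACAGAA at 99 bases and NFAT cores at 195 and 61 bases before the start. The downstream Foxp3 promoter held the STAT motif TTCCAAGAA at 139 bases, which overlaps an NFAT core at 140 bases. The upstream Foxp3 promoter held an NFAT core at 205 bases, the downstream Entpd1 promoter held NFAT cores at 233 and 130 bases, and the upstream Entpd1 promoter held none of the 4 motifs. Of 32851 RefSeq mouse promoters read over the same length, 3.17% held the forkhead motif, 7.02% the STAT motif, 6.75% the AP-1 motif and 55.6% the NFAT core. Neither the forkhead nor the AP-1 letters occurred in these 9 windows. The matches are descriptions of sequence, and binding was not measured.

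**Figure D1:**
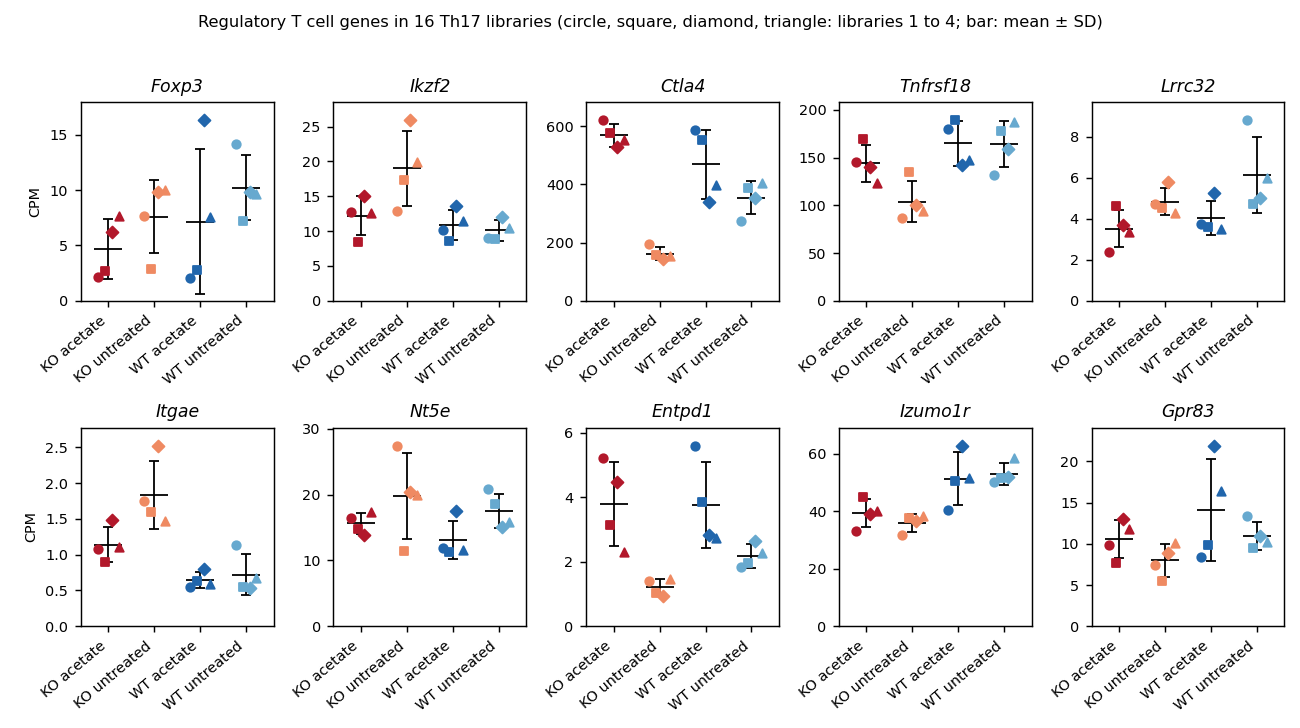
CPM of the 10 genes (y axes, linear, from 0) in the 4 groups (x axis, KO acetate, KO untreated, WT acetate, WT untreated), with a point for each library and the group mean and SD. KO untreated libraries sit lowest for Ctla4, between 143 and 194 CPM, and highest for Itgae, between 1.47 and 2.52 CPM, while Foxp3 spreads widely in every group.

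Without acetate, the knockout moved genes of this set in both directions. Ctla4, Tnfrsf18, Entpd1 and Izumo1r were lower in KO than in WT cells, and Ikzf2 and Itgae were higher, while Foxp3 itself was not called. By edgeR's quasi-likelihood test, with Benjamini-Hochberg adjustment over all genes, 6 of the 10 genes passed an adjusted p of 0.05, 2 higher and 4 lower. Of all genes tested, 36.6% were called in this comparison, 18.0% higher and 18.6% lower. The libraries of both groups did not overlap for 5 of the 10 genes, and for 36.0% of all genes. The median log2 fold change was −0.45 over the 10 genes and 0.01 over all genes.

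Ctla4, the inhibitory receptor that competes with CD28, had 194, 156, 143 and 155 CPM in KO untreated libraries 1 to 4, against 276, 388, 352 and 404 CPM in WT untreated libraries 1 to 4. Every KO untreated library was below every WT untreated library. The group means were 162 ± 22.4 CPM in KO untreated and 355 ± 56.8 CPM in WT untreated libraries (SD, n = 4 each). The gene fell in KO cells (log2 fold change −1.13, SE 0.162, adjusted p = 8.18e-05). Tnfrsf18, which encodes GITR, had 86.8, 135, 100.4 and 93.6 CPM in KO untreated libraries, against 132, 178, 159 and 187 CPM in WT untreated libraries. The groups overlapped, because KO untreated 2 was above WT untreated 1, and the other 3 KO untreated libraries were below all WT untreated libraries. Tnfrsf18 fell as well (log2 fold change −0.66, SE 0.149, adjusted p = 0.00316).

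Entpd1, the ectonucleotidase CD39, had 1.40, 1.04, 0.935 and 1.47 CPM in KO untreated libraries, against 1.82, 1.97, 2.64 and 2.26 CPM in WT untreated libraries. All 4 KO untreated libraries were below the lowest WT untreated library, and Entpd1 fell (log2 fold change −0.85, SE 0.279, adjusted p = 0.0233). That call was lost without KO untreated 2, KO untreated 3 or WT untreated 3, where the adjusted p reached 0.0729. Over all 16 fits that left out 1 library, the log2 fold change stayed between −0.95 and −0.74. Without the 4 libraries rich in the unnamed gene it was −0.93 with an adjusted p of 0.105. Izumo1r, which encodes the folate receptor family protein FR4, had 31.6, 37.6, 36.6 and 38.3 CPM in KO untreated libraries, against 50.3, 51.6, 51.9 and 58.7 CPM in WT untreated libraries. All KO untreated libraries were below all WT untreated libraries, with a fall of smaller size than those above (log2 fold change −0.56, SE 0.112, adjusted p = 8.65e-04).

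Ikzf2 encodes Helios, an Ikaros family factor of regulatory T cells that is also found in some activated T cells. It had 12.9, 17.3, 25.9 and 19.9 CPM in KO untreated libraries, against 9.01, 8.88, 12.0 and 10.5 CPM in WT untreated libraries. Every KO untreated library was above every WT untreated library, although KO untreated 1 was close to WT untreated 3. Ikzf2 rose in KO cells (log2 fold change 0.91, SE 0.206, adjusted p = 0.00270). Itgae, the CD103 integrin chain that pairs with Itgb7 to bind E-cadherin, had 1.75, 1.59, 2.52 and 1.47 CPM in KO untreated libraries, against 1.13, 0.545, 0.529 and 0.676 CPM in WT untreated libraries. These levels were low, between 15 and 70 counts over the 16 libraries, and the groups did not overlap. Itgae rose (log2 fold change 1.35, SE 0.281, adjusted p = 0.00109). The calls for Ctla4, Tnfrsf18, Izumo1r, Ikzf2 and Itgae held when any of the 16 libraries was left out.

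Lrrc32, Nt5e, Gpr83 and Foxp3 did not pass the test. Lrrc32, the GARP protein that displays latent TGFβ, lay between 4.30 and 5.79 CPM in KO untreated and 4.73 and 8.80 CPM in WT untreated libraries, at a log2 fold change of −0.34 (adjusted p = 0.223). Nt5e, the CD73 enzyme that makes adenosine, ranged over 11.4 to 27.4 CPM in KO untreated and 15.0 to 20.8 CPM in WT untreated libraries, at a log2 fold change of 0.17 (adjusted p = 0.556). Gpr83, a G protein-coupled receptor, ranged over 5.47 to 10.1 CPM in KO untreated and 9.51 to 13.4 CPM in WT untreated libraries, at a log2 fold change of −0.47 (adjusted p = 0.211). All 3 genes overlapped between the groups. Gpr83 was called lower in a fit of these 8 libraries alone (adjusted p = 0.0493).

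**Figure D2:**
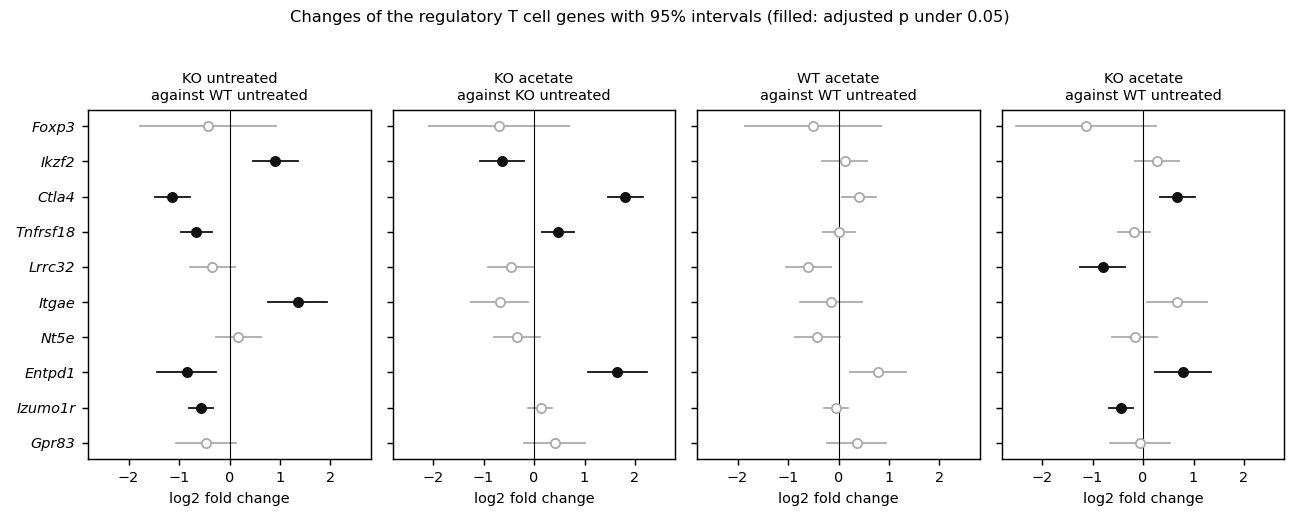
Log2 fold changes of the 10 genes (x axis) with 95% intervals from edgeR, for KO untreated against WT untreated, KO acetate against KO untreated, WT acetate against WT untreated and KO acetate against WT untreated, with genes down the y axis. Filled points passed an adjusted p of 0.05. Ctla4 is at −1.13 for the knockout without acetate and at 1.81 for acetate in KO cells, and the Foxp3 intervals are wide, for example −1.78 to 0.92 for the knockout without acetate.

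With acetate, Ctla4, Entpd1 and Tnfrsf18 were higher in KO cells and Ikzf2 was lower. These 4 of the 10 genes were called, 3 higher and 1 lower, where 43.7% of all genes were called in this comparison, 22.1% higher and 21.6% lower. The libraries did not overlap for 2 of the 10 genes and for 37.7% of all genes. The KO untreated libraries are also the ones compared with WT untreated above, so the opposite signs of the 2 comparisons share those libraries.

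Ctla4 had 620.1, 577, 527 and 553 CPM in KO acetate libraries 1 to 4, against 194, 156, 143 and 155 CPM in KO untreated libraries. The lowest KO acetate library was above the highest KO untreated library. Ctla4 rose 3.51-fold (log2 fold change 1.81, SE 0.165, adjusted p = 4.89e-07). Entpd1 had 5.22, 3.14, 4.47 and 2.31 CPM in KO acetate libraries, against 1.40, 1.04, 0.935 and 1.47 CPM in KO untreated libraries. No library overlapped, although the KO acetate values spread over more than those without acetate, and Entpd1 rose 3.13-fold (log2 fold change 1.65, SE 0.277, adjusted p = 9.52e-05). Tnfrsf18 had 145, 169.6, 139.9 and 123 CPM in KO acetate libraries, and KO acetate 4 was below KO untreated 2. The rise of Tnfrsf18 (log2 fold change 0.47, SE 0.149, adjusted p = 0.0181) was not called without KO acetate 2, KO untreated 1 or KO untreated 4, where the adjusted p reached 0.0609.

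Ikzf2 had 12.8, 8.41, 15.1 and 12.6 CPM in KO acetate libraries, against 12.9, 17.3, 25.9 and 19.9 CPM in KO untreated libraries. KO acetate 3 was above KO untreated 1, so the groups overlapped. Ikzf2 fell (log2 fold change −0.63, SE 0.205, adjusted p = 0.0195), and the call was lost without KO acetate 2 or KO untreated 3, where the adjusted p reached 0.0750, without scaling factors (adjusted p = 0.0874) and in a fit of these 8 libraries alone (adjusted p = 0.0515). Itgae averaged 1.14 ± 0.249 CPM in KO acetate and 1.83 ± 0.472 CPM in KO untreated libraries, at a log2 fold change of −0.68 (adjusted p = 0.0512), just outside the threshold. It passed in DESeq2 (adjusted p = 0.0469), without the filter on low counts (adjusted p = 0.0498) and with a term for the replicate number (adjusted p = 0.0473). Itgae also passed without KO acetate 3, KO untreated 4 or WT untreated 1 (lowest adjusted p 0.0293). Lrrc32 averaged 3.52 ± 0.912 CPM in KO acetate and 4.83 ± 0.661 CPM in KO untreated libraries, at −0.46 (adjusted p = 0.0962). Without the 4 libraries rich in the unnamed gene, Lrrc32 was at −0.68 (adjusted p = 0.0362), and without KO acetate 2 it was called too (adjusted p = 0.0384). The log2 fold changes of the others were −0.70 (adjusted p = 0.413) for Foxp3, −0.34 (adjusted p = 0.205) for Nt5e, 0.13 (adjusted p = 0.396) for Izumo1r and 0.41 (adjusted p = 0.260) for Gpr83. Nt5e averaged 15.6 ± 1.58 CPM in KO acetate and 19.8 ± 6.55 CPM in KO untreated libraries, and its call was gained without KO untreated 2 (adjusted p = 0.0119).

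In WT cells, edgeR called 0 of the 10 genes for acetate, where 15.4% of all genes were called, 7.89% higher and 7.55% lower. At an unadjusted p under 0.05 there were 3, and DESeq2 called those 3, which were Ctla4, Entpd1 and Lrrc32. Ctla4 had 587, 553, 340.5 and 398 CPM in WT acetate libraries, against 276, 388, 352 and 404 CPM in WT untreated libraries. WT acetate 1 and 2 were above all WT untreated libraries, and WT acetate 3 and 4 lay among them (log2 fold change 0.40, SE 0.160, adjusted p = 0.106). Entpd1 had 5.59, 3.84, 2.83 and 2.73 CPM in WT acetate libraries, against 1.82, 1.97, 2.64 and 2.26 CPM in WT untreated libraries. It was the 1 gene of the 10 with no overlap, a property of 21.3% of all genes (log2 fold change 0.78, SE 0.263, adjusted p = 0.0505). Lrrc32 averaged 4.03 ± 0.840 CPM in WT acetate and 6.13 ± 1.86 CPM in WT untreated libraries (log2 fold change −0.60, SE 0.213, adjusted p = 0.0638). For Tnfrsf18, which averaged 165 ± 23.5 CPM in WT acetate and 164 ± 24.2 CPM in WT untreated libraries, the 95% interval of the log2 fold change was −0.31 to 0.32. With 1 library left out, Ctla4 was called without WT acetate 3 (adjusted p = 0.0195). Lrrc32 was called without KO acetate 1, WT acetate 3 or WT untreated 2 (lowest adjusted p 0.0259). Entpd1 was called without KO acetate 1, KO acetate 4, WT acetate 3 or WT acetate 4 (lowest adjusted p 0.0331). The other 6 log2 fold changes were −0.51 (adjusted p = 0.654) for Foxp3, −0.42 (adjusted p = 0.213) for Nt5e, 0.36 (adjusted p = 0.437) for Gpr83, −0.15 (adjusted p = 0.795) for Itgae, 0.12 (adjusted p = 0.775) for Ikzf2 and −0.05 (adjusted p = 0.833) for Izumo1r.

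The acetate effect itself differed between the genotypes for Ctla4. The interaction, the effect in KO cells minus the effect in WT cells, was 1.41 on the log2 scale for Ctla4 (SE 0.227, adjusted p = 0.00135). It was the 1 call among the 10 genes, where 11.9% of all genes were called, 6.37% higher and 5.54% lower, and it held when any library was left out. At an unadjusted p under 0.05 there were 4, and the other 3 were 0.86 (adjusted p = 0.151) for Entpd1, −0.75 (adjusted p = 0.107) for Ikzf2 and 0.47 (adjusted p = 0.169) for Tnfrsf18. Ikzf2 passed without KO untreated 1 (adjusted p = 0.0388), in DESeq2 at −0.75, in a fit with the replicate number at −0.73 (adjusted p = 0.00873) and in one that separates replicates 1 and 2 from 3 and 4 at −0.73 (adjusted p = 0.0155). Tnfrsf18 passed without KO untreated 2 (adjusted p = 0.0375) and without the 4 libraries rich in the unnamed gene at 0.58 (adjusted p = 0.0384). The acetate effect behind the Ctla4 interaction was 1.81 in KO cells and 0.40 in WT cells.

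With acetate in both genotypes, edgeR called 0 of the 10 genes between KO and WT cells, where 1.00% of all genes were called, 0.487% higher and 0.514% lower. At an unadjusted p under 0.05 there were 2, Itgae and Izumo1r, and DESeq2 called 1, Izumo1r. Itgae had 1.08, 0.897, 1.49 and 1.10 CPM in KO acetate libraries, against 0.553, 0.635, 0.796 and 0.594 CPM in WT acetate libraries. These groups did not overlap, as for 9.36% of all genes, and the log2 fold change was 0.82 (adjusted p = 0.137). Izumo1r had 33.0, 45.0, 39.1 and 40.1 CPM in KO acetate libraries, against 40.4, 50.6, 62.8 and 51.7 CPM in WT acetate libraries. KO acetate 2 was above WT acetate 1, so the groups overlapped, and the log2 fold change was −0.39 (adjusted p = 0.0859). Izumo1r was called without KO acetate 2 or WT acetate 1 (lowest adjusted p 0.0353). The log2 fold changes were −0.20 (adjusted p = 0.666) for Lrrc32, 0.25 (adjusted p = 0.570) for Nt5e and −0.41 (adjusted p = 0.443) for Gpr83. The 95% interval was −0.06 to 0.62 for Ctla4, −0.28 to 0.60 for Ikzf2, −0.50 to 0.13 for Tnfrsf18 and −0.53 to 0.55 for Entpd1, so differences inside these bounds could not be told from none. The difference between the genotypes with acetate and that without is the same interaction as above, which was called for Ctla4.

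Set against WT untreated cells, KO cells with acetate were higher in Ctla4 and Entpd1 and lower in Lrrc32 and Izumo1r. These 4 of 10 genes were called where 26.4% of all genes were, 12.9% higher and 13.5% lower, and 3 of the 10 did not overlap where 28.4% of all genes did not. Ctla4 was at 0.68 (adjusted p = 0.00617), above every WT untreated library. Izumo1r was at −0.43 (adjusted p = 0.00837), with all KO acetate libraries below all WT untreated libraries. Lrrc32 had 2.39, 4.60, 3.72 and 3.37 CPM in KO acetate libraries, against 8.80, 4.73, 5.00 and 5.98 CPM in WT untreated libraries. The groups did not overlap (log2 fold change −0.80, SE 0.215, adjusted p = 0.0106), and without WT untreated 1, the highest library, the value was −0.58 with an adjusted p of 0.0524. Entpd1 was at 0.80 (adjusted p = 0.0318) with overlap. That call was lost without KO acetate 1, KO acetate 3, WT untreated 1, WT untreated 2 or WT untreated 4, where the adjusted p reached 0.134, and without the 4 libraries rich in the unnamed gene at 0.79 (adjusted p = 0.0978). Without those libraries, Tnfrsf18 was called lower at −0.37 (adjusted p = 0.0231) and Itgae higher at 1.05 (adjusted p = 0.0267). Itgae was also called without WT untreated 1 (adjusted p = 0.0236).

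Over the 4 groups, Ctla4 had its highest mean in KO acetate, then in WT acetate, WT untreated and KO untreated libraries. Of these neighbours, KO acetate and WT acetate were not told apart by edgeR, at 0.28 (adjusted p = 0.373), nor were WT acetate and WT untreated, and KO untreated was below WT untreated. Entpd1 averaged 3.78 ± 1.31 CPM in KO acetate and 1.21 ± 0.264 CPM in KO untreated libraries, and 3.75 ± 1.33 CPM in WT acetate and 2.18 ± 0.363 CPM in WT untreated libraries. Its means thus stood in the same order as those of Ctla4, and KO acetate and WT acetate were again not told apart (log2 fold change 0.01, adjusted p = 0.984). Izumo1r averaged 39.3 ± 4.89 CPM in KO acetate and 36.0 ± 3.06 CPM in KO untreated libraries, and 51.4 ± 9.17 CPM in WT acetate and 53.1 ± 3.80 CPM in WT untreated libraries. KO acetate and KO untreated were not told apart, at a log2 fold change of 0.13 (adjusted p = 0.396), nor were WT acetate and WT untreated, at −0.05 (adjusted p = 0.833).

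Markers of CD8 T cells moved beside Ctla4 and Entpd1. Cd8a, Cd8b1 and Eomes, 3 of 4 listed genes in the table, summed to between 17.6 and 23.1 CPM in KO acetate and 8.94 and 14.4 CPM in KO untreated libraries, and 19.7 and 21.9 CPM in WT acetate and 13.6 and 15.8 CPM in WT untreated libraries. Cd8a and Cd8b1 were called lower in KO untreated than in WT untreated libraries, as were 18.6% of all genes. Both were called higher in KO acetate than in KO untreated libraries, as were 22.1% of all genes. Eomes was called in neither comparison. With acetate in WT cells Cd8b1 was called higher (7.89% of all genes), where Ctla4 and Entpd1 were not called. The part of these CD8 T cell markers in the results for Ctla4 and Entpd1 was not tested. Gzmk was not analysed here. The Th17 cytokine genes moved in the same direction with acetate in KO cells. Il17a averaged 868 ± 258 CPM in KO acetate and 137 ± 27.7 CPM in KO untreated libraries (log2 fold change 2.66, adjusted p = 1.71e-05). Il17f averaged 1117 ± 254 CPM in KO acetate and 419 ± 88.7 CPM in KO untreated libraries (log2 fold change 1.42, adjusted p = 1.78e-04). For the knockout without acetate neither was called, with Il17a at 0.02 (adjusted p = 0.962) and Il17f at −0.27 (adjusted p = 0.372). With acetate in WT cells both rose, Il17a at 1.84 (adjusted p = 0.00146) and Il17f at 0.92 (adjusted p = 0.0139). The part of these 2 cytokine genes in the results was not tested. The 6 T cell genes summed to between 1441 and 1556 CPM in KO acetate and 1457 and 1636 CPM in KO untreated libraries, and 1569 and 1670.4 CPM in WT acetate and 1803 and 1912 CPM in WT untreated libraries. Of these 6 genes, 3 were called lower in KO untreated than in WT untreated libraries, as were 18.6% of all genes. With acetate in WT cells 4 were lower (7.55% of all genes), and in KO acetate against WT untreated libraries 5 (13.5%). In KO acetate against WT acetate libraries 2 were lower (0.514%). With acetate in KO cells 1 was higher (22.1%) and 2 were lower (21.6%). The part of these 6 genes in the results for the regulatory T cell genes was not tested.

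Foxp3, the defining factor, varied widely between libraries of the same group. It had 2.12, 2.65, 6.20 and 7.67 CPM in KO acetate libraries, 7.62, 2.91, 9.79 and 10.0 CPM in KO untreated libraries, 2.02, 2.77, 16.3 and 7.57 CPM in WT acetate libraries and 14.2, 7.18, 9.82 and 9.67 CPM in WT untreated libraries. The first 2 libraries of each acetate group were low and the other 2 higher, KO untreated 2 was low, and all 4 groups overlapped. Group means were 4.66 ± 2.70 CPM in KO acetate and 7.59 ± 3.30 CPM in KO untreated libraries, and 7.16 ± 6.57 CPM in WT acetate and 10.2 ± 2.93 CPM in WT untreated libraries (SD, n = 4 each). The counts behind these values were between 62 and 553. The biological coefficient of variation fitted to Foxp3 was 0.6, and 2.6% of tested genes had a higher one, where the median of all genes was 0.113. No comparison called Foxp3. The knockout without acetate gave −0.43 (adjusted p = 0.624) with a 95% interval of −1.78 to 0.92, which holds falls and rises alike. Without the 4 libraries rich in the unnamed gene the same value was 0.15. KO acetate against WT acetate gave −0.62 (adjusted p = 0.648) and KO acetate against WT untreated −1.13 (adjusted p = 0.216).

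**Figure D3:**
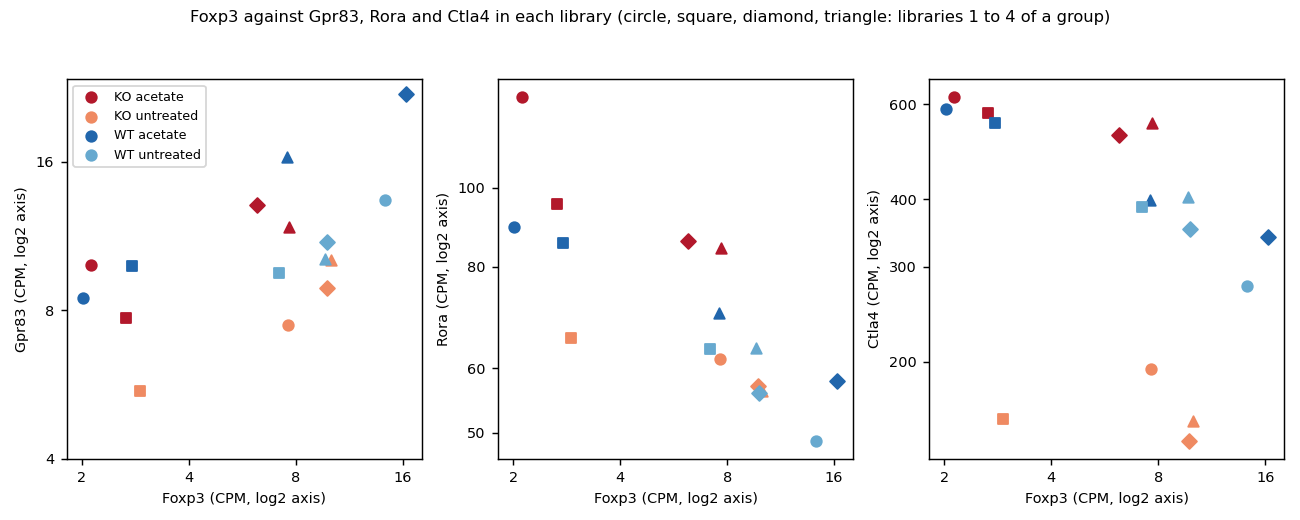
CPM of Gpr83, Rora and Ctla4 (y axes, log2 scale) against CPM of Foxp3 (x axes, log2 scale) in the 16 libraries, coloured by group, with marker shapes for libraries 1 to 4. With group means removed, which the plot does not do, Gpr83 goes up with Foxp3 (r = 0.943) and Rora goes down (r = −0.882).

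The spread of Foxp3 inside the groups was shared with some of the other genes. Group means were removed from log2 CPM, and 69 relations over the 16 libraries were tested by permuting libraries within groups 100000 times, with Benjamini-Hochberg adjustment over the 69. Gpr83 had 9.87, 7.70, 13.0 and 11.8 CPM in KO acetate libraries, 7.46, 5.47, 8.89 and 10.1 CPM in KO untreated libraries, 8.45, 9.81, 21.9 and 16.4 CPM in WT acetate libraries and 13.4, 9.51, 11.0 and 10.2 CPM in WT untreated libraries. Its highest library, WT acetate 3, was also the highest for Foxp3. Gpr83 went with Foxp3 (Pearson r = 0.943, permutation p = 8.00e-05, adjusted p = 0.00276; Spearman rho = 0.924, adjusted p = 0.00207). The r was 0.900 without the 2 libraries farthest from the median of Foxp3 and 0.888 once replicates 1 and 2 were separated from 3 and 4. Rora, which encodes an orphan nuclear receptor of Th17 cells, went the other way (r = −0.882, permutation p = 1e-05, the smallest these permutations can give, adjusted p = 6.90e-04; rho = −0.909, adjusted p = 0.00138). Without the farthest 2 libraries its r was −0.820, and with the replicate term −0.826.

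Tnfrsf18 was also inverse to Foxp3 (r = −0.790, permutation adjusted p = 0.0158; rho = −0.806, adjusted p = 0.0146), with r = −0.815 without the farthest 2 libraries. Ctla4 was at r = −0.734, which missed the threshold (permutation adjusted p = 0.0821; rho = −0.721, adjusted p = 0.0830; r = −0.538 without the farthest 2 libraries). Tnfrsf18 and Gpr83 were inverse to each other (r = −0.789, permutation adjusted p = 0.0158; rho = −0.771, adjusted p = 0.0358). Ctla4 instead went with some of the 12 Th17 identity genes tested beside it. Its r was 0.813 with Rora (permutation adjusted p = 0.00759; rho = 0.844, adjusted p = 0.00529; r = 0.709 without the farthest 2 libraries). With the cytokine gene Il17f its r was 0.832 (permutation adjusted p = 0.00759; rho = 0.809, adjusted p = 0.0146; r = 0.795 without the farthest 2 libraries). Il17a passed too (r = 0.795, permutation adjusted p = 0.0185), and the other Th17 identity genes did not. Among those, Stat3 was at r = 0.692 (permutation adjusted p = 0.101). Batf (r = −0.439), Maf (r = −0.169) and Il1r1 (r = −0.185) had negative values. Over the 45 pairs of the 10 genes, r ran from −0.790 to 0.943 with a median of 0.00186, and 4 pairs had an adjusted p under 0.05. The fourth of these pairs was Tnfrsf18 and Nt5e (r = −0.762, permutation adjusted p = 0.0384; rho = −0.644, adjusted p = 0.106; r = −0.656 without the farthest 2 libraries). Gpr83 and Izumo1r, which are neighbours on chromosome 9 with no gene between them in RefSeq order, had r = 0.418 with each other (permutation adjusted p = 0.404).

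Over all 16 libraries, with groups not removed, the genes whose log2 CPM was most like that of Foxp3 were Slbp (r = 0.925), Dnajc5 (0.910), Ubash3a (0.909), Gpr55 (0.908) and Ubtf (0.907), among 9450 candidates with a mean of at least 5 CPM. For Ctla4 they were Pi4k2b (0.992), Slc25a24 (0.981), Gpr65 (0.976), Hccs (0.973) and Frmd4b (0.973). For Ikzf2 they were Nptxr (0.911), Zfp994 (0.889), Slc35a1 (0.875), Trmt10a (0.866) and Ppcs (0.858). These are descriptions over libraries that share groups and depth, and no p is given for them.

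Around the 10 genes, wider lists of regulatory T cell biology were read for the knockout without acetate and for acetate in KO cells. In both comparisons each list but the suppressive mediators held calls of both directions, and no list was tested as a whole. Of all genes tested, 36.6% were called for the knockout without acetate and 43.7% for acetate in KO cells, and the counts below are to be read beside these shares. Of 22 transcription factors that work with Foxp3 or act on its gene, 4 were higher and 5 lower in KO untreated than in WT untreated libraries, with a median log2 fold change of −0.09 where that of all genes was 0.01. With acetate in KO cells 7 were higher and 7 lower (median 0.07 against −0.01 for all genes). Of 27 tested genes that are high in regulatory T cells, 4 were higher and 10 lower for the knockout (median −0.18) and 7 higher and 7 lower with acetate in KO cells (median 0.01). Of 10 tested suppressive cytokines and mediators, 0 were higher and 2 lower for the knockout (median −0.12), and 4 were higher and 0 lower with acetate in KO cells (median 0.19). Of 23 tested partners of the surface proteins, 1 was higher and 5 lower for the knockout (median −0.13), and 9 were higher and 4 lower with acetate in KO cells (median 0.16).

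**Figure D4:**
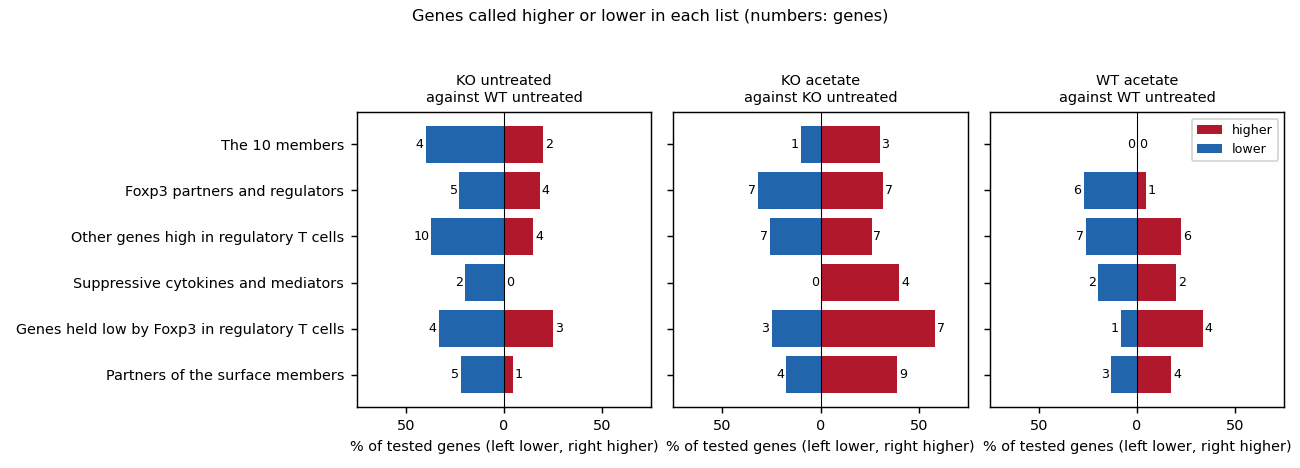
Percent of tested genes called by edgeR at an adjusted p under 0.05 (x axis, lower to the left and higher to the right of 0), with the number of genes beside each bar, for the 10 genes (members) and the wider lists (y axis) in 3 comparisons. Of the suppressive mediators 2 are lower for the knockout without acetate and 4 are higher with acetate in KO cells.

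Among the Foxp3 partners, Satb1, a chromatin organiser needed for the regulatory T cell programme in the thymus, averaged 595 ± 25.6 CPM in KO untreated and 936 ± 36.5 CPM in WT untreated libraries (log2 fold change −0.65, adjusted p = 3.74e-06). It averaged 801 ± 81.6 CPM in KO acetate and 595 ± 25.6 CPM in KO untreated libraries (log2 fold change 0.43, adjusted p = 1.45e-04). Rel, the c-Rel subunit of NF-κB that acts on the Foxp3 gene, averaged 115 ± 10.6 CPM in KO untreated and 165 ± 17.3 CPM in WT untreated libraries (log2 fold change −0.52, adjusted p = 1.55e-04). It averaged 294 ± 30.1 CPM in KO acetate and 115 ± 10.6 CPM in KO untreated libraries (log2 fold change 1.35, adjusted p = 2.54e-09), so it fell in KO cells and rose with acetate in KO cells. Bcl11b, a T cell identity factor, averaged 183 ± 5.29 CPM in KO untreated and 133 ± 12.5 CPM in WT untreated libraries (log2 fold change 0.46, adjusted p = 3.46e-04), and fell with acetate in KO cells at −0.72 (adjusted p = 1.82e-06). Ikzf4, which encodes Eos, a partner of Foxp3, averaged 24.0 ± 0.567 CPM in KO acetate and 42.9 ± 4.16 CPM in KO untreated libraries (log2 fold change −0.83, adjusted p = 1.83e-07). Its log2 fold change for the knockout without acetate was 0.20 (adjusted p = 0.0538). That value was called with the replicate number in the fit (adjusted p = 0.0489), without the 4 libraries rich in the unnamed gene at 0.30 (adjusted p = 0.0260), and without KO untreated 2 or WT untreated 1 (lowest adjusted p 0.0187).

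Among the other genes high in regulatory T cells, the coreceptor Tigit averaged 7.80 ± 0.627 CPM in KO untreated and 16.4 ± 3.61 CPM in WT untreated libraries (log2 fold change −1.07, adjusted p = 0.00323). It averaged 36.6 ± 7.50 CPM in KO acetate and 7.80 ± 0.627 CPM in KO untreated libraries (log2 fold change 2.23, adjusted p = 4.85e-06). Cd83, a surface protein of activated cells, averaged 37.3 ± 1.22 CPM in KO untreated and 11.6 ± 0.947 CPM in WT untreated libraries (log2 fold change 1.68, adjusted p = 9.02e-09), and Plagl1, a zinc finger factor, averaged 20.0 ± 1.10 CPM in KO untreated and 8.83 ± 1.27 CPM in WT untreated libraries (log2 fold change 1.17, adjusted p = 1.60e-06). With acetate in KO cells Cd83 fell at −0.40 (adjusted p = 0.00216) and Plagl1 fell at −1.09 (adjusted p = 1.35e-06). Nrp1, a marker of thymus-derived regulatory T cells, averaged 6.84 ± 0.599 CPM in KO acetate and 16.7 ± 1.88 CPM in KO untreated libraries (log2 fold change −1.29, adjusted p = 6.65e-07), with 0.15 (adjusted p = 0.404) for the knockout without acetate. With acetate in both genotypes, the 1 gene of this list called between KO and WT cells was Cd83, which was higher in KO cells. Nrp1 for the knockout was called without the 4 libraries rich in the unnamed gene, at 0.43 (adjusted p = 0.0129), and without WT untreated 1 (adjusted p = 0.0262).

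Ebi3, a subunit of IL-35 and IL-27, averaged 20.6 ± 1.92 CPM in KO acetate and 12.3 ± 2.17 CPM in KO untreated libraries (log2 fold change 0.74, adjusted p = 1.87e-04). Adora2a, the adenosine receptor on T cells that answers the product of CD39 and CD73, averaged 30.1 ± 5.05 CPM in KO untreated and 40.8 ± 4.35 CPM in WT untreated libraries (log2 fold change −0.44, adjusted p = 0.00368), and it rose with acetate in KO cells at 0.98 (adjusted p = 8.62e-07). Nrros, a GARP relative that also holds latent TGFβ, averaged 14.6 ± 1.63 CPM in KO untreated and 22.8 ± 1.78 CPM in WT untreated libraries (log2 fold change −0.64, adjusted p = 1.77e-04), and it rose with acetate in KO cells at 0.63 (adjusted p = 1.20e-04). Itgav, an integrin chain that activates TGFβ, averaged 102 ± 22.1 CPM in KO acetate and 57.7 ± 3.03 CPM in KO untreated libraries (log2 fold change 0.83, adjusted p = 9.10e-05). Cd86, a ligand of CTLA-4, averaged 4.93 ± 1.48 CPM in KO untreated and 2.09 ± 0.506 CPM in WT untreated libraries (log2 fold change 1.24, adjusted p = 0.00241), and without the 4 libraries rich in the unnamed gene the value was 0.75 (adjusted p = 0.124).

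Of 12 genes that Foxp3 holds low in regulatory T cells, where 36.6% of all genes were called for the knockout and 43.7% for acetate in KO cells, 3 were higher and 4 lower for the knockout without acetate (median −0.12), and 7 were higher and 3 lower with acetate in KO cells (median 0.31). Pde3b, a phosphodiesterase, averaged 103 ± 2.25 CPM in KO untreated and 146 ± 9.52 CPM in WT untreated libraries (log2 fold change −0.51, adjusted p = 2.49e-06), and Id3, an inhibitor of E proteins, averaged 64.0 ± 2.63 CPM in KO untreated and 34.3 ± 4.54 CPM in WT untreated libraries (log2 fold change 0.90, adjusted p = 2.72e-06). Cd40lg, the ligand of CD40 on helper T cells, averaged 182 ± 4.13 CPM in KO acetate and 107 ± 7.66 CPM in KO untreated libraries (log2 fold change 0.76, adjusted p = 1.81e-07). In WT cells acetate gave 4 higher and 1 lower among these 12 genes that Foxp3 holds low, and 1 higher and 6 lower among the Foxp3 partners. It gave 6 higher and 7 lower among the other regulatory T cell genes and 2 higher and 2 lower among the suppressive mediators. Of the 23 tested surface partners, 4 were higher and 3 lower. In this comparison 15.4% of all genes were called, 7.89% higher and 7.55% lower. Several of these lists share genes, such as Satb1 and Tgfb1.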

How the data were processed

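RNA sequencing was performed on 16 libraries of mouse Th17 cultures in 4 groups of 4. The authors deposited 1 table of estimated counts, already whole, and these were used as deposited. Salmon, DESeq2 and DESeq stand in the submitters' processing notes with no version, and a genome build or annotation is not given in sources used here. Libraries were made with a stranded mRNA kit, per the labels' protocols. No gene of the table had 10 counts in fewer than 3 libraries, and genes with less were not analysed here. Of 15571 Ensembl identifiers, 15221 were paired with a gene name through a reference table, and 0 columns of values were left unused.

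Tests used edgeR 4.0.16 in R 4.3.3 (limma 3.58.1), with TMM scaling, filterByExpr and the robust quasi-likelihood F test, in 1 fit of all 16 libraries with no replicate term, adjusted over 14985 genes. A gene was called at an adjusted p under 0.05, and all adjusted p-values of genes are from this test unless another tool is named. Words such as rose and fell stand for calls. The common coefficient of biological variation was 0.144. In a chi-square test of their counts, libraries differed by more than counting error in each of 24 pairs of the same group (6.18 to 213.6 for each degree of freedom), and none was counted as a duplicate.

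The alternatives were DESeq2 1.42.0, RLE factors, no scaling factors, no filter, a replicate term, a term for replicates 1 and 2 against 3 and 4, fits without the 4 libraries rich in the unnamed gene, without that gene, on 2 groups only and without each library. The genes named beside the 10 were each among the 4 of a list with the smallest adjusted p in a comparison. Others that met this, such as Tnfrsf9, Gzmb, Adk and Il2, are not described. The 10 genes, the lists and these choices were made with earlier results of these data known. Promoters were RefSeq sequences (GRCm38.p6). No coordinates were taken from the authors' table. Some results are not reported here.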

Additional observations from a re-analysis of the deposited data

Results flagged for a closer look

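In each group of 4 libraries, the highest or lowest library was set against the others for the 10 genes and the 16 other genes named, 104 groups in all. By Dixon's test at its 95% critical value, a library stood apart in 5 groups, and chance flags about 1 in 20 groups. Lrrc32 was at 5.28 CPM in WT acetate 3, where the next library was at 3.74 CPM, and Nt5e was at 17.5 CPM in the same library, where the next was at 11.9 CPM. Ikzf4 was highest in WT untreated 1 at 42.1 CPM, next to 36.1 CPM, and Plagl1 was lowest there at 6.95 CPM, next to 9.30 CPM. Pde3b was lowest in KO untreated 4 at 99.2 CPM, next to 103 CPM.

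The effect of acetate differed between KO and WT cells by the interaction test of edgeR (effect in KO minus effect in WT, log2 scale) for Ctla4 at 1.41 (adjusted p = 0.00135), Satb1 at 0.59 (adjusted p = 0.00188) and Rel at 0.68 (adjusted p = 0.00178). It was 1.25 for Tigit (adjusted p = 0.0239), 0.43 for Pde3b (adjusted p = 0.00227), 0.37 for Cd40lg (adjusted p = 0.0268) and 0.55 for Adora2a (adjusted p = 0.0217). It was negative for Bcl11b at −0.41 (adjusted p = 0.0299), Cd83 at −1.21 (adjusted p = 2.87e-05), Plagl1 at −1.10 (adjusted p = 6.75e-04) and Id3 at −0.84 (adjusted p = 0.00103). The calls for Bcl11b, Tigit, Cd40lg and Adora2a were lost when some single libraries were left out, with adjusted p-values up to 0.0692, 0.0511, 0.0637 and 0.0507. Without the 4 libraries rich in the unnamed gene, Bcl11b (adjusted p = 0.0785), Tigit (adjusted p = 0.0724) and Adora2a (adjusted p = 0.0599) were lost as well, and Bcl11b was also lost without scaling factors (adjusted p = 0.0859). Bcl11b was lost in 8 of the fits that left out 1 library and Cd40lg in 6, Tigit without KO untreated 3, and Adora2a without WT untreated 3.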

How the results depend on the processing

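The labels do not say whether the replicate numbers pair the libraries, and the main fit held no replicate term. Correlations between same-numbered libraries were weak but not absent, so pairing was neither shown nor excluded. Over 24 pairs of same-numbered libraries, 9 correlations of deviations from the group means were over 0.1 (range −0.084 to 0.229, median 0.0484). Of the 4 replicate numbers, 9 of 16 libraries correlated best on average with their own. Whether that count exceeds chance was not tested. With the replicate block, 1 of the 10 genes was called in KO acetate against WT acetate (0 without it) and 2 in the interaction (1 without it), 408 of all genes were called in the first of these (150 without it), and the Foxp3 interaction was 0.13. The libraries rich in the unnamed gene left KO untreated with 2 libraries when taken out. Then 3361 of all genes were called for KO untreated against WT untreated (5481 with them), 535 for KO acetate against WT acetate and 1010 for the interaction (1785 with them), with 2 of the 10 in the interaction. Without them Foxp3 was at 0.15 for KO untreated against WT untreated. For acetate in WT cells Tnfrsf18 was at −0.10 and Itgae at 0.14. Izumo1r was at −0.01 for acetate in KO cells, and Gpr83 at 0.16 for KO acetate against WT untreated. The interactions were −0.30 for Lrrc32, −0.02 for Nt5e and −0.18 for Gpr83.

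DESeq2 called 788 of all genes and 1 of the 10 for KO acetate against WT acetate, 3 of the 10 for acetate in WT cells and 2 in the interaction. A term for replicates 1 and 2 against 3 and 4 gave 234 genes for KO acetate against WT acetate, 2 of the 10 in the interaction, a Foxp3 interaction of 0.09 and a Tnfrsf18 value of −0.01 for acetate in WT cells. Without scaling factors 78 genes were called for KO acetate against WT acetate, 1 of the 10 for acetate in WT cells (Entpd1), Gpr83 was at 0.00 for KO acetate against WT untreated, and the median of all genes for acetate in KO cells was 0.09 in place of −0.01. RLE factors, leaving out the unnamed gene and fitting 2 groups only each called 1 of the 10 for acetate in WT cells, again Entpd1, and the fit of 2 groups called 16 genes for KO acetate against WT acetate. The causes of these differences were not tested.

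Leaving out each library in turn, the 10 genes gave 5 to 6 calls for KO untreated against WT untreated, 0 to 1 for KO acetate against WT acetate, 0 to 3 for acetate in WT cells, 3 to 5 for acetate in KO cells, 3 to 4 for KO acetate against WT untreated and 1 to 2 for the interaction. Over all genes the counts, in the same order, were 4491 to 5587, 21 to 661, 1569 to 2370, 5817 to 6652, 2944 to 4097 and 1277 to 1999. Signs turned among uncalled values. For KO acetate against WT acetate these were Foxp3 (−0.97 to 0.20) and Entpd1 (−0.18 to 0.27), for KO untreated against WT untreated Nt5e (−0.02 to 0.37), and for KO acetate against WT untreated Gpr83 (−0.17 to 0.06). For acetate in WT cells they were Ikzf2 (−0.01 to 0.22), Tnfrsf18 (−0.09 to 0.07), Itgae (−0.27 to 0.15) and Izumo1r (−0.16 to 0.05). For the interaction they were Foxp3 (−0.54 to 0.63), Lrrc32 (−0.09 to 0.30), Nt5e (−0.13 to 0.26) and Gpr83 (−0.13 to 0.35). Calls of the 10 genes lost or gained this way are given beside each gene. Itgae and Entpd1, whose levels were near 1 CPM in some groups, reached the lowest counts of the 10 genes. Their lowest libraries held 15 and 26 counts, and the part of depth in their results was not tested.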
